A study of Mus musculus with 25 samples.

Results

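Heterotrimeric G proteins relay the signal of receptors on the cell surface, and the RGS (regulator of G protein signaling) proteins switch that signal off. The genes for both were taken by name from a table of gene levels in single mouse cells: whole symbols of the form Gna, Gnb or Gng with the letters or numbers of a subunit, and Rgs followed by a number alone, so that Rgs7bp and Rgs9bp are not among them. The rule found 54 genes among 30903 symbols, of which 16 encode alpha subunits, 5 beta subunits, 12 gamma subunits and 21 RGS proteins. The rule itself uses names, and where a symbol stood on several rows the row with the highest sum was taken.

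The cells came from a single group with no control group. They were 25 GFP-positive cells of the arcuate nucleus and median eminence, a region at the base of the hypothalamus, from 2 male RIP-Cre mice on a (C57BL/6 x DBA)F2 background, averaging 63 days of age. Every cell therefore shared the RIP-Cre transgene, in which a fragment of the rat insulin promoter drives Cre, and the virus AAV-loxSTOPlox-GFP, which makes GFP only after Cre has acted. GFP thus marks cells that both took up the virus and had Cre activity. The mice were pooled, so the cells could not be assigned to an animal, were counted as 1 sample, and no test between groups was possible.

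When a ligand binds a G protein-coupled receptor, the alpha subunit exchanges GDP for GTP and separates from the beta and gamma subunits, and both parts of the complex act on enzymes and channels. Alpha subunits fall into the Gs class, which stimulates adenylyl cyclase, the Gi/o class, which mostly inhibits it, the Gq/11 class, which activates phospholipase C beta, and the G12/13 class, which acts on the cytoskeleton. RGS proteins speed the hydrolysis of GTP by alpha subunits and are grouped into the R4, R7, R12 and RZ subfamilies. In the hypothalamus, receptors for neuropeptides, monoamines and many hormones signal through these proteins.

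The levels were RPKM (read numbers scaled by gene length and sequencing depth). Division by length allows comparison between genes only as far as the lengths used fit the transcripts present. The lengths behind the table are not known, so rankings of genes and shares of classes carry that uncertainty. A level of 10 RPKM or more counted as detection, and a gene was detected in most cells when at least 13 of the 25 reached it. Estimated depth ran from 890191 to 3008243 reads per cell, and 3843 to 6183 symbols were detected per cell. All 25 cells held neuronal transcripts, with 7 to 10 of 10 neuron markers detected in each. In 6 cells (1, 3, 5, 6, 29 and 31) the nuclear RNA Malat1 was below 20 RPKM, and the closing section gives counts without them. Cell numbers are those of the labels.

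Of the 54 genes, 39 (72.2%) were detected in at least 1 cell, where 42.7% of all symbols in the table were. In most cells 22 of the 54 (40.7%) were detected, beside 13.5% of all symbols, and in every cell 8 (14.8%), beside 2.6% of all symbols. Among the 16341 symbols above 0 in any cell the same shares were 80.8%, 25.6% and 4.92%. The members' shares keep genes at 0 in every cell, such as Gna15 and Rgs1, so they are not on the same footing as these. The 8 members detected in every cell were Gnas, Gnai2, Gnao1, Gnb1, Gnb2, Gnb5, Gng2 and Gng3. Each cell thus held at least 3 alpha, 3 beta and 2 gamma subunit genes, but no RGS gene was common to all cells. Over the 22 genes detected in most cells the median of their median levels was 73.8 RPKM, beside 43.8 RPKM for the 4180 symbols detected in most cells. A cell held between 19 (cell 3) and 28 (cell 29) of the 54 genes, with a median of 22. Cell 29 was also the cell with the most symbols detected.

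**Figure D1:**
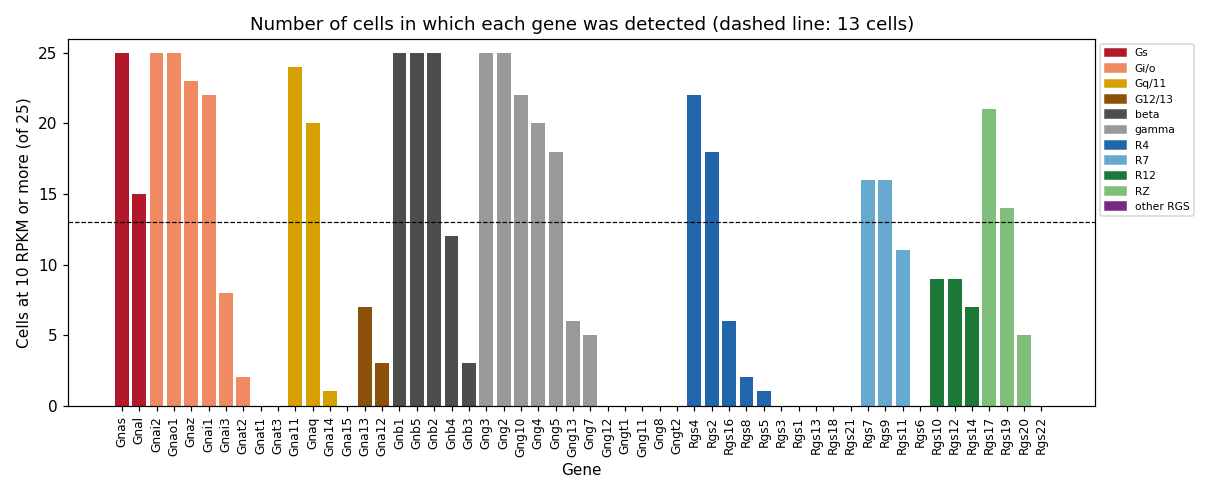
Number of cells, of 25, in which each of the 54 genes reached 10 RPKM (vertical axis), with genes on the horizontal axis grouped and coloured by class; the dashed line marks 13 cells. Bars reach 25 for 8 alpha, beta and gamma subunit genes, and the highest RGS bar is Rgs4 at 22.

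The level of each gene in each cell was mostly either well above the detection level or exactly 0. Of the 1350 values (54 genes in 25 cells), 702 (52%) were 0, 80 (5.93%) lay above 0 and below 10 RPKM, and 568 (42.1%) were 10 RPKM or more. At the zeros, 3 reads would have given 0.0923 to 3.67 RPKM, depending on the gene's length and the cell's depth, and a count of 0 allows levels up to these. The 15 genes detected in no cell were Gna15, Gnat1, Gnat3, Gng8, Gng11, Gng12, Gngt1, Gngt2, Rgs1, Rgs3, Rgs6, Rgs13, Rgs18, Rgs21 and Rgs22. Among them are the rod transducin subunits Gnat1 and Gngt1, gustducin (Gnat3), and Gna15, known from blood cells. A count of 0 of 25 cells allows a share of up to 12% of cells by the limit of 3 counts, or 13.7% by the exact 95% interval, for counting error only.

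**Figure D2:**
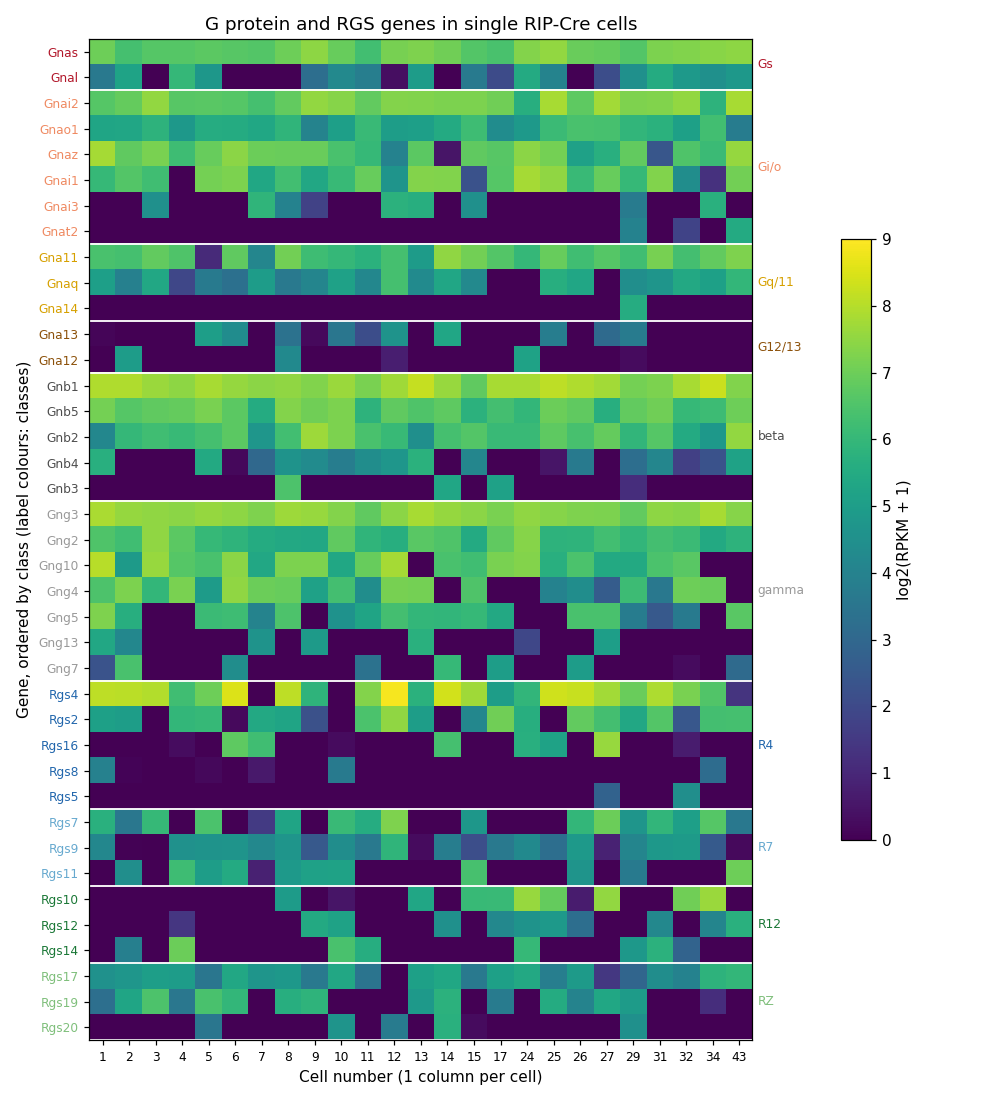
Level of the detected genes (rows, grouped by class) in each of the 25 cells (columns), coloured by log2(RPKM + 1). Rows such as Gnb1 and Gng3 are filled in every cell, while rows of the RGS genes switch between filled and empty from cell to cell.

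Promoter sequence was set beside these patterns, since CpG-rich promoters are typical of broadly used genes. RefSeq (GRCm38.p6) gave the start site of 40 of the 54 genes, and CpG dinucleotides (CG) were counted in the 250 bases before it. A single start was used for each gene, and some windows, such as those of Gnas, Rgs6 and Gng2, lie inside the annotated gene. Which start these cells use was not tested. The median was 21 CpG for the 19 genes detected in most cells, 14.5 for 12 detected in some cells and 4 for 9 detected in none. Over all symbols with a promoter the same medians were 16 (n = 3217), 16 (n = 6294) and 3 (n = 7388), so the members' order was near that of the table as a whole. At least 10 CpG were found in 84.2%, 58.3% and 22.2% of the members of these groups, against 80.6%, 71.8% and 20.6% of all symbols. Some members went the other way: Gng3, Gng2 and Gnb5 were detected in every cell with 2, 3 and 3 CpG, and Gng12 and Rgs6 in none with 28 and 18. The promoters below are shown to contrast a CpG-rich and a CpG-poor gene of all 25 cells (Gnb1, at chr4:155491111-155491360 on the plus strand, with 26 CpG, and Gng3, at chr19:8839247-8839496 on the minus strand, with 2), the leading RGS gene Rgs4 (chr1:169747643-169747892, minus, 13 CpG), the variable gene Rgs9 (chr11:109298182-109298431, minus, 14 CpG), and Rgs13 (chr1:144177373-144177622, minus, 0 CpG), which was detected in no cell. They run 5′ to 3′ toward the start, and capitals mark each CpG.
Gnb1: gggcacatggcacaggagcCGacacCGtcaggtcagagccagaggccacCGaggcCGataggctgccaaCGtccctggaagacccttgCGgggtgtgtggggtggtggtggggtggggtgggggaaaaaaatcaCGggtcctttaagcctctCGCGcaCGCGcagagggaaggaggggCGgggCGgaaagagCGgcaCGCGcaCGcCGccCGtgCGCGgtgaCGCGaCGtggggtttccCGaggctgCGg
Gng3: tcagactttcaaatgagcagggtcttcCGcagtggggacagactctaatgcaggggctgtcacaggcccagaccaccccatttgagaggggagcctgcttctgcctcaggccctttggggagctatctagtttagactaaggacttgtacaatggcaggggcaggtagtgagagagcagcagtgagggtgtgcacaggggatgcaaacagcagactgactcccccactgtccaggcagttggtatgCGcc
Rgs4: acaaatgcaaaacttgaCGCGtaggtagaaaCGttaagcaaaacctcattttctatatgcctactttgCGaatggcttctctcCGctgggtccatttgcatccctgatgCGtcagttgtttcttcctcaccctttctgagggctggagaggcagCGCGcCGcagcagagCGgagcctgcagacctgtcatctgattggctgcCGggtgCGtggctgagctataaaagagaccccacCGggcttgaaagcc
Rgs9: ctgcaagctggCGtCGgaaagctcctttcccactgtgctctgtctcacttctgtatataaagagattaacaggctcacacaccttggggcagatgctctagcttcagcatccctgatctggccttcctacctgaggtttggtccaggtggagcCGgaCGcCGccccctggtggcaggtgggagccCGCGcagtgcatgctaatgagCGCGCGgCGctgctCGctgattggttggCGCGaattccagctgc
Rgs13: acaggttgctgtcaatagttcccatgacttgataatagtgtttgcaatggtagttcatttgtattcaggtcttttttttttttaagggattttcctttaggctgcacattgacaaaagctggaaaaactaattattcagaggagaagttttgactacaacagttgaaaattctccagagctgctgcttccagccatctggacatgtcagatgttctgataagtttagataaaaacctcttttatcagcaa
The Gnb1 run is crowded with capitals, most of them near its 3′ end. Those of Rgs9 are mostly in short clusters, those of Rgs4 mostly stand apart along the run, and the Rgs13 run has none.

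**Figure D3:**
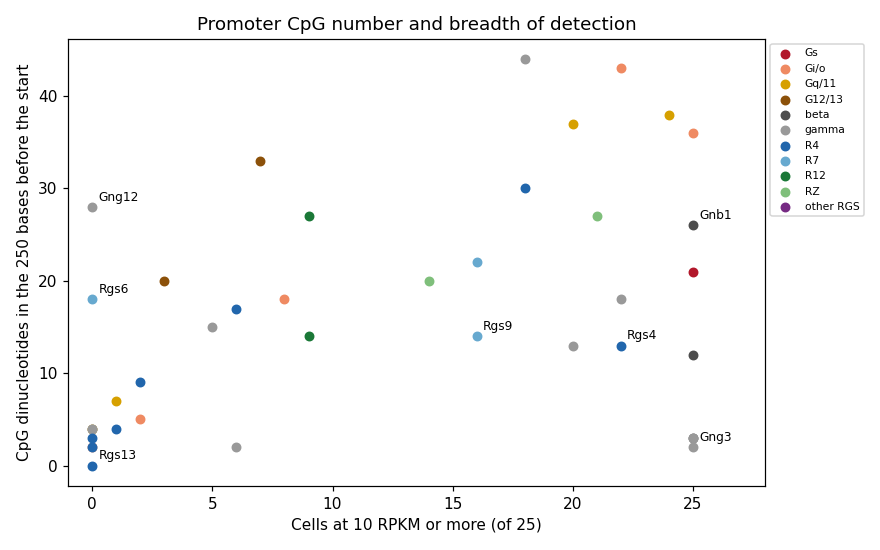
Number of CpG in the 250 bases before the RefSeq start (vertical axis) against the number of cells with the gene detected (horizontal axis), 1 point for each of the 40 genes with a promoter. Points with 10 or more CpG dominate at high cell numbers, and Gng3 (2 CpG), Gng2 and Gnb5 (3 each) lie below them at 25 cells.

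The alpha subunits of most cells were those of the Gi/o, Gs and Gq/11 classes. The Gi/o genes made up a median of 60.3% of the summed alpha-subunit RPKM of a cell (42.8 to 70.8%), the Gs genes 20.1% (13.3 to 35.3%), the Gq/11 genes 17.8% (2.26 to 29.4%) and the G12/13 genes 0.0265% (0 to 5.45%). The last median rests on cells near 0 and was 0.876% without the 5 shallowest cells. Thus Gi/o transcripts were the largest class by RPKM in the median cell, and the ranges of Gi/o and Gs did not overlap. The Gi/o class counts 8 genes and the Gs class 2. These shares also depend on gene lengths, and those behind the table are not known. In the annotation used here the exons cover 11186 bases for Gnas, 11053 for Gnao1 and 3779 for Gnai2.

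**Figure D4:**
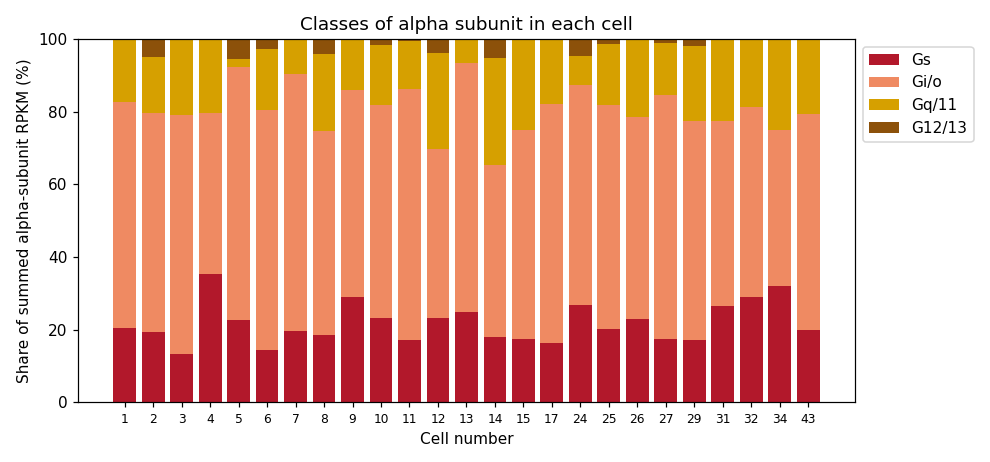
Share of the summed alpha-subunit RPKM (vertical axis, percent) taken by the Gs, Gi/o, Gq/11 and G12/13 classes in each of the 25 cells (horizontal axis). The Gi/o share lies between 42.8 and 70.8% in every cell, and the G12/13 share is at most 5.45%.

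Among the Gs genes, Gnas, which encodes the stimulatory subunit Gs alpha, was at 76.9 RPKM in the lowest cell, 122 in the median cell and 184 in the highest, with a coefficient of variation over cells (CV) of 26.1%. Gnas (chromosome 2, 174284320 to 174346744 on the plus strand of GRCm38) is an imprinted locus with several promoters, and these values are for the gene's highest row. The other rows of the same symbol held little: 3 cells at most, up to 42.2 RPKM. Gnal, which encodes the olfactory form Golf, reached the level in 15 cells, with a lowest value of 0, a median of 13.4 and a highest of 63.0 RPKM. Every cell thus held Gnas, and Gnal came beside it in a subset, at a lower level.

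Of the Gi/o genes, Gnai2 was the most abundant and was detected in all cells, at 48.7 RPKM in the lowest cell, 148 in the median and 227 in the highest. Gnao1, which encodes the main G protein of neuronal membranes, was also in all cells but lower, at 12.7, 44.1 and 84.7 RPKM in the lowest, median and highest cell. Gnaz, a Gi-class subunit with slow GTP hydrolysis, was in 23 cells, from 0.44 RPKM in cell 14 through a median of 110 to 222 in cell 1. Only cells 14 and 31 were below the level for Gnaz. Gnai1 was in 22 cells, with a median of 76.9 and up to 220 RPKM (cell 24), and was below the level in cells 4, 15 and 34. Gnai3 was in 8 cells (highest 58.0 RPKM) and the cone transducin gene Gnat2 in 2 (highest 44.3 RPKM).

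Gnai2 was the highest alpha subunit in 14 of 25 cells (56%, exact Clopper-Pearson 95% interval 34.9 to 75.6%, for counting error over cells only). Gnai1 led in 4 cells (5, 11, 13 and 24), Gnaz in 3 (1, 6 and 7), Gna11 in 2 (8 and 14) and Gnas in 2 (26 and 34). The 25 cells therefore had 5 different leading alpha subunits, and 21 of them had a Gi/o gene on top.

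The Gq/11 genes were Gna11, detected in 24 cells, and Gnaq, in 20. Gna11 was at 1.09 RPKM in cell 5 and otherwise from 16.5 to 179 RPKM, with a median of 83.6. Gnaq had a lowest value of 0, a median of 20.7 and a highest of 80.4 RPKM. Its paralog Gna14 was in 1 cell (cell 29, 47.2 RPKM). The G12/13 genes were found in few cells: Gna13 in 7, up to 38.9 RPKM, and Gna12 in 3, up to 35.7 RPKM, and no cell held both above the level.

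Of the beta subunits, which form a fixed pair with a gamma subunit, Gnb1, Gnb2 and Gnb5 were detected in every cell. Gnb1 had the highest median level of the 54 genes, at 110 RPKM in the lowest cell, 201 in the median and 308 in the highest. It was the top beta subunit in 23 cells (92%, exact interval 74.0 to 99.0%), and Gnb2 led in the other 2 (cells 9 and 43). Gnb2 was more uneven, from 17.0 RPKM in cell 1 through a median of 76.0 to 204 in cell 9. Gnb5, an outlying beta subunit that pairs with the R7 RGS proteins rather than with gamma subunits, was at 44.9 RPKM in the lowest cell, 109 in the median and 159 in the highest. Its lowest value was in cell 7, and no cell was near the detection level. Gnb4 was in 12 cells (median 8.51, highest 52.5 RPKM) and Gnb3, the cone beta subunit, in 3 (cells 8, 14 and 17, highest 88.2 RPKM).

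The gamma subunit genes of all cells were Gng3, which is mainly neuronal, and Gng2. Gng3 was the most even of the 54 genes, at 110 RPKM in the lowest cell, 173 in the median and 230 in the highest, with a CV of 17.0%. Bscl2, on the opposite strand, shares 24.2% of the exon bases of Gng3 and was in 24 cells (median 119 RPKM), and the protocol keeps no strand, so reads from the shared bases could belong to either. Gng2 was at 40.8, 64.9 and 180 RPKM in the lowest, median and highest cell. Gng10 was in 22 cells with a median of 85.7 and a highest of 258 RPKM, and its value is uncertain, since 72.0% of its exon bases also belong to Gm20503 on the same strand. Gng4 was in 20 cells (median 71.6, highest 180 RPKM) and Gng5 in 18 (median 41.9, highest 152 RPKM). Gng13 and Gng7 were in 6 and 5 cells.

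Gng3 was the top gamma subunit in 19 cells (76%, exact interval 54.9 to 90.6%), Gng10 in 5 (1, 3, 11, 12 and 17) and Gng4 in 1 (cell 6). Cells also differed in which gamma genes they held: Gng4 was below the level in cells 14, 17, 24, 27 and 43, while Gng5 was below it in 7 cells and Gng10 in 3.

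The RGS genes detected differed from cell to cell. Each cell held between 4 (cells 3 and 7) and 8 (cells 5, 8, 10, 24 and 29) of the 21, with a median of 6. No 2 cells held the same combination of the 14 RGS genes detected in any cell, none of which was in all cells. Combinations of other genes were not compared, so whether this is particular to RGS genes was not tested. The R4 genes made up a median of 57.1% of the summed RGS RPKM of a cell, R7 16.1%, RZ 14.9% and R12 14.1%.

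Among the R4 genes, which are small proteins with little beyond the RGS domain, Rgs4 led. It was in 22 cells, with a lowest value of 0, a median of 161 and a highest of 465 RPKM in cell 12, and it was below the level in cells 7, 10 and 43. Rgs4 was the top RGS gene in 17 cells (68%, exact interval 46.5 to 85.1%). The other 8 cells were led by Rgs14 (cells 4 and 10), Rgs10 (24 and 34), Rgs16 (7), Rgs19 (9), Rgs2 (17) and Rgs11 (43). Rgs2, which acts mainly on Gq, was in 18 cells, from 0 through a median of 41.4 to 181 RPKM. Rgs16 was in 6 cells (6, 7, 14, 24, 25 and 27) and at 0 in 16, and peaked at 193 RPKM in cell 27. Rgs8 was in 2 cells (highest 14.6 RPKM).

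Rgs5 was detected in cell 32 only, at 20.7 RPKM, and is also a marker of mural cells. Of 6 mural markers 1 was detected in any cell, Pdgfrb, Kcnj8 and Cspg4 were at 0 throughout, and the 6 summed to 0 in cell 32. Rgs10 is also known from microglia. None of 7 microglia markers was detected in any cell, C1qa, C1qb, C1qc, P2ry12 and Tyrobp were at 0 in all 25, and the sum of the 7 was at most 1.04 RPKM.

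The R7 proteins carry a domain that binds Gnb5, and Rgs9 is best known from striatal neurons and photoreceptors. Rgs9 was in 16 cells (64%, exact interval 42.5 to 82.0%), from 0 in cell 3 through a median of 16.0 to 58.8 RPKM in cell 12. Its next highest value was 28.9, so cell 12 stood well above the others. Values of 1 RPKM or more were found in 20 cells. For Rgs9, 10 RPKM stands for an estimated 116 reads in the median cell. Rgs7 was likewise in 16 cells but reached higher, from 0 through a median of 26.3 to 153 RPKM in cell 12. Rgs11 was in 11 cells and at 0 in 13, and peaked at 129 RPKM in cell 43. Arhgdig, on the other strand, shares 3.28% of its exon bases and was in 24 cells.

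At least 1 R7 gene was detected in 23 cells: 8 cells held 1, 10 held 2 and 5 (cells 5, 8, 10, 26 and 29) held 3. Cells 13 and 25 held none, with Gnb5 present in both. Rgs7 and Rgs9 shared 10 cells, which is 62.5% of the cells of each and close to the 64% of all cells that each reached. Rgs7 and Rgs11 shared 8, which is 50% of the Rgs7 cells and 72.7% of the Rgs11 cells.

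**Figure D5:**
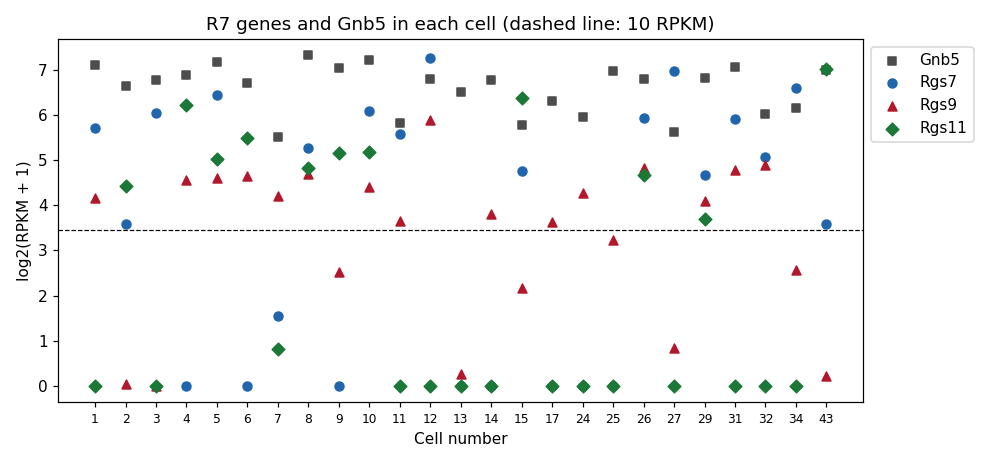
Level of Gnb5, Rgs7, Rgs9 and Rgs11 as log2(RPKM + 1) (vertical axis) in each of the 25 cells (horizontal axis), with the detection level as a dashed line. Gnb5 is above the line in every cell, while the R7 genes are above it in different sets of cells.

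Of the R12 genes, Rgs10 was in 9 cells (highest 200.4 RPKM, cell 34), Rgs12 in 9 (highest 52.0 RPKM) and Rgs14 in 7 (highest 127 RPKM, cell 4). Rgs14 and Rgs12 also bind inactive Gi alpha through a GoLoco motif. All 3 were at 0 in the median cell, and where Rgs10 and Rgs14 were present they could be the leading RGS gene. In the RZ subfamily, whose members act on Gnaz and other Gi/o subunits, Rgs17 was in 21 cells, from 0 in cell 12 through a median of 25.8 to 61.0 RPKM in cell 43. Rgs19 was in 14 cells (median 12.3, highest 89.3 RPKM) and Rgs20 in 5 (5, 10, 12, 14 and 29, highest 52.1 RPKM).

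The other genes of the pathway were read from 8 lists with 50 genes beyond the members. Of these 50, 39 were detected in at least 1 cell, 16 in most cells and 4 in all, where 42.7%, 13.5% and 2.6% of all symbols were. Among symbols above 0 in any cell these shares were 80.8%, 25.6% and 4.92%. The lists keep genes at 0 in every cell, such as Rgs9bp. The 4 detected in all cells were protein kinase A subunits, the targets of cyclic AMP: Prkaca, Prkacb, Prkar1a and Prkar1b. Their medians were 123, 117, 241 and 313 RPKM, and all 6 subunits of that list were in most cells. Of 10 adenylyl cyclases 7 were detected but 2 in most cells, Adcy3 in 16 (median 32.9 RPKM) and Adcy2 in 13. Of 4 phospholipase C beta genes 3 were detected, none in most cells: Plcb1 in 6, Plcb4 in 5 and Plcb2 in 3. Of the Gq/11 genes, Gna11 was in 24 cells and Gnaq in 20. Of the GIRK potassium channels, opened by beta-gamma, Kcnj9 was in 14 cells and Kcnj3 in 6, while Kcnj5 and Kcnj6 were detected in none. Receptor kinases and arrestins were led by Adrbk1 in 16 cells and Arrb2 in 13.

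Among the proteins that hold R7 complexes at the membrane, Rgs7bp was in 13 cells (highest 55.5 RPKM), Gpr158 in 5 and Gpr179 in 2, while Rgs9bp was at 0 in all cells. Gpsm1, a GoLoco protein, was in 20 cells. The chaperones Ric8a (listed as Ric8) and Ric8b were in 15 and 14. Rasd1, a Ras-like protein that activates Gi, was in 13, up to 415 RPKM in cell 15.

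The cells were then compared with genes that mark hypothalamic neuron types, as overlaps of cells with the R4 and R7 genes and with any member detected in 4 to 21 cells. In 21 of 230 such pairs all cells of 1 gene held the other, which is a description with no test. Rgs7 was in all 8 cells with tyrosine hydroxylase (Th), the dopamine synthesis enzyme, and in 8 of the 17 others. It ranged from 11.0 to 153 RPKM (median 49.1) in the Th cells and from 0 to 126 (median 1.91) in the others, so the ranges overlapped. The pair was named because its overlap was full, and these levels come from the same cells. The share of all symbols with such an overlap is not given, so a link of Rgs7 to Th was not tested. Rgs7 was also in all 7 cells with the transcription factor Lhx1, at 26.3 to 153 RPKM (median 60.5), against a median of 6.43 (0 to 126) in the other 18. The Th and Lhx1 cells are in large part the same: cells 3, 8, 11, 12, 15 and 26 held both. Other marker genes also shared cells: cells 8, 14, 29 and 43 held both Pomc and Agrp, and Agrp reached at most 50.6 RPKM. Sets of cells that overlap in this way were therefore not taken as separate neuron types. Other sets, such as those of Lhx1 and Tbx19, shared no cell. Gnaq, in 20 of the 25 cells, was detected in all Th, Lhx1 and Pomc cells.

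Rgs4 was in all 5 Sst cells, at 56.5 to 365 RPKM, and in all 7 Lhx1 cells, at 127 to 465 RPKM, while the cells without Lhx1 ran from 0 to 365. Gng4 was in all Sst, Lhx1 and Gal cells, and Rgs17 in all Sst and Tbx19 cells. These genes were in most cells anyway, Rgs4 in 22, Rgs17 in 21 and Gng4 in 20 of the 25. Both Slc17a6 cells (7 and 27) held Gng5, Gng13, Rgs2 and Rgs16, and cell 32, the only cell with Rgs5, held Glp1r, Pomc, Cartpt, Gal and Tbx19. Rgs9 was in 3 of 5 Sst cells, 5 of 8 Th, 5 of 7 Lhx1, 6 of 10 Glp1r, 7 of 10 Pomc, 5 of 9 Agrp, 7 of 10 Cartpt, 4 of 5 Gal, 4 of 7 Tbx19 and 1 of 2 Slc17a6 cells, and it was in 16 of 25 cells overall. Rgs9 was therefore in some but not all of the cells of each of these genes.

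Among members detected in 4 to 21 cells, 12 of 190 pairs overlapped fully in the same sense. The 5 cells with Rgs20 all held Rgs9, Gna13, Gnaq and Gng5, and the 5 with Gng7 all held Gng5, Rgs17 and Rgs19. The 8 cells with Gnai3 all held Gnaq and Gng4, the 12 with Gnb4 all held Gnaq, the 7 with Rgs14 all held Gnal, and the 9 with Rgs12 all held Rgs17. Most of the containing genes were themselves widespread, such as Gnaq in 20 and Rgs17 in 21 cells, whereas Gna13, in 7 cells, was not.

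Some of the genes lie near each other, with 11 neighbouring pairs within 200 kb. In 3 of these pairs (Rgs13 and Rgs1, Rgs21 and Rgs18, Gngt1 and Gng11) neither gene was detected in any cell, and in the other 8 the numbers of cells differed. On chromosome 1, Rgs4 (169741477 to 169747642, minus strand) lies 45.7 kb from Rgs5, and the pair was in 22 and 1 cells. Rgs2, 134 kb from Rgs13, was in 18 cells and Rgs13 in none. Rgs8 and Rgs16, 40.0 kb apart, were in 2 and 6. On chromosome 10, Gna11 and Gna15 are 4.5 kb apart and were in 24 and 0 cells. On chromosome 19, Gnaq and Gna14 are 48.3 kb apart and were in 20 and 1. Gnai2 and Gnat1, 39.1 kb apart on chromosome 9, were in 25 and 0, and Rgs9 and Gna13, 64.7 kb apart on chromosome 11, in 16 and 7. Gnat2 and Gnai3, 5.85 kb apart on chromosome 3, were in 2 and 8.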

How the data were processed

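The submitters' labels describe papain-digested tissue, hand-picked GFP-positive cells, and Smart-Seq2 and Nextera XT libraries of poly(A) RNA, which carry no strand and no molecular identifiers. The authors deposited 1 table named as counts, but its values behave as RPKM: they are decimals, and low values times gene length fall on steps of whole reads. The submitters' processing notes list, without role or order, featureCounts 1.4.6, SAMtools 0.1.19, Picard 2.5.0, TopHat2 2.0.14 and bcl2fastq, and the builds mm10 and GRCm38. The annotation behind the table is not given in the sources used here.

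Of all 33082 rows, 26 with dates for names were dropped, and 755 repeated symbols were each reduced to their highest row by sum. GENCODE M21 on GRCm38 supplied lengths and positions, and the authors may have used others. Value times length summed to 1.38 to 1.46 times the expected total, so read numbers are estimates. Depth was estimated from those steps, tested on simulated data for 22715 genes at 12 depths with a largest error of 0.968%. The simulation used the same lengths as the estimate, so this error leaves out any mismatch of lengths. Python 3.11.15, numpy 2.4.6, pandas 2.3.3, scipy 1.17.1 and matplotlib 3.10.9 were used. Doublets were not assessed.

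Members and gene lists were chosen with earlier results of these data known. Named with values are members detected in most cells (up to 4 a class), those that led a class, and Rgs9, and the other members detected more briefly. Of the pairs with identity genes, those with Rgs9 and those with full overlap are named. Promoters came from RefSeq (GRCm38.p6), cut to the 250 bases before the start. Alternatives were detection at 1, 5 or 20 RPKM or 10 estimated reads, rescaled cells, summed repeated rows, and leaving out the 6 cells of low Malat1 or the 5 shallowest. No test was run, since cells of 1 pool are not replicates. Intervals are exact Clopper-Pearson 95% intervals. They and the limit for a count of 0 cover counting error only.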

Additional observations from a re-analysis of the deposited data

How the results depend on the processing

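Of 108 recomputed summary values, 105 stayed within the limit set for them (the main value's interval for shares of cells, 1.5 times for counts of genes, 1 SD over cells for medians over cells), and 3 moved. The median G12/13 share, 0.0265%, became 0.876% without the 5 shallowest cells, within that SD of 2.01 percentage points but many times the main value. Gnb1 led the beta subunits in 20 of 20 cells (100%) without the 5 shallowest cells. At 20 RPKM, Rgs9 was detected in 9 cells (36%), and 8 pathway genes were in most cells in place of 16. Rgs9 was in 20 cells at 1 RPKM and at 10 estimated reads, and in 17 at 5 RPKM. Members in most cells numbered 19 to 23 over all settings, members in at least 1 cell 38 to 42, and members per cell 20 to 25. Gnai2 led the alpha subunits in 13 cells with repeated rows summed, in 11 of 19 without the cells of low Malat1 and in 10 of 20 without the shallowest. Without the cells of low Malat1, Rgs4 led in 11 of 19. In the same setting Rgs7 was in 6 of 6 Th cells and 5 of 5 Lhx1 cells. At 20 RPKM, Rgs7 was in 7 of 8 Th cells. The counts for Gnai2 as leader and for Rgs7 in Th and Lhx1 cells were not planned. Recounting them in the same cells gives no separate support. Of 304 recomputed values of single named genes, 295 stayed within their interval and 9 moved: Gna11 and Rgs17 at 1 RPKM and at 10 reads, Gna13, Gnaq and Rgs8 at 20 RPKM, and Gna11 and Gna14 without the cells of low Malat1. No paired analysis was possible because the labels give 1 group. A listed 0 allows up to 3.67 RPKM by the limit of 3 reads, and Rgs9, a long gene, needs more reads to reach 10 RPKM (56.9 in the shallowest cell) than a short one such as Gng13 (6.88).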
